A study of Mus musculus with 26 samples.

Results

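The T cell receptor complex of a CD8+ T cell, its CD8 co-receptor and the kinases and adaptors that act first after receptor engagement were examined as 10 genes, of 35944 genes with an assigned transcript. The genes were listed by name, at a time when earlier results of these data were known. They were the CD3 chains Cd3e, Cd3d and Cd3g, the zeta chain Cd247, the co-receptor chains Cd8a and Cd8b1, the kinases Lck and Zap70, and the adaptors Lat and Lcp2. All 10 passed the filter on low counts and were tested among 15465 genes.

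The cells were TCRTg101, CD8+ T cells that carry a transgenic receptor taken from 1 T cell clone, which recognizes an undefined antigen of the mouse leukemia line C1498. The mice they came from were Rag2-/- by the study's methods, while the sample labels give C57BL/6, 6 week old and wild type for every sample. Transferred cells had been labelled with a dye that is diluted by division, recipients were given C1498 cells 1 day later, and TCRTg101 were sorted for low-input RNA sequencing. Control libraries were naive TCRTg101 at day 0 (replicates 1 and 2) and TCRTg101 labelled as from untreated mice at day 18 (replicate 3). All 3 were from spleen, and all comparisons with control share these 3 libraries. Libraries of leukemia-bearing mice were 2 of early liver (day 7), 3 of mid liver (days 13, 13 and 14 for replicates 1, 2 and 3), 2 of late liver (day 18 for replicate 1 and day 16 for replicate 2), 2 of spleen at day 7, 1 of spleen at day 14 and 1 of undivided cells of spleen at day 18. One more library of naive cells at day 0, made with oligo-dT priming, was left out of every fit. Replicate 1 of the control, mid and late groups belonged to the TG series of sample titles and all other low-input libraries to the XC series, so a comparison within the TG series had 1 library in each group. Control and undivided cells came from spleen, so leukemia and tissue cannot be told apart in a comparison of liver with control.

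Estimated counts per library ranged from 22918996 to 71358287, and TMM factors, which scale libraries so that most genes do not differ, from 0.723 in late liver replicate 1 to 1.22 in day 7 spleen replicate 2. With scaling by total counts in place of TMM, the median log2 fold change of all genes moved from -0.07 to -0.28 in mid liver, from -0.04 to -0.35 in late liver and from -0.07 to -0.33 in both together. Fold changes below are relative to the TMM scale, and the ratios within a library do not depend on it. The 2 early liver libraries differed from each other in several of the 10 genes, and values are given for each. The fixed T cell markers (Thy1, Trac, Cd5, Cd2 and Cd27) summed to between 1401 and 2960 CPM in every library. The 4 CD4 lineage markers summed to 2.73 to 7.73 CPM in control and to 17.1 to 19.4 CPM in late liver. Zbtb7b was at 0.162 to 1.39 CPM in control and 8.224 to 8.999 CPM in late liver. Cd40lg was at 0.374 to 2.17 CPM in control and 5.32 to 7.49 CPM in late liver. Foxp3 was at 0.26 to 0.801 CPM in control and 2.22 to 2.98 CPM in late liver. Cd4 itself was at 0.13 to 5.35 CPM in control and 0.57 to 0.71 CPM in late liver. The 6 hepatocyte markers summed to 82.7 to 337 CPM in late liver and to 1.07 to 319 CPM in control. Alb was at 24.4 to 132 CPM in late liver and at most 0.0325 CPM in control, where Trf alone reached 319 CPM. The 6 myeloid markers summed to 10.4 to 472 CPM in control and to 23.7 to 49.5 CPM in late liver. For the 5 Kupffer cell markers the sums were 1.4 to 209 CPM in control and 3.2 to 4.1 CPM in late liver. Erythroid RNA differed between libraries, with sums over 5 markers of 136 to 20346 CPM in control and 31.9 to 156 CPM in late liver. The part of these RNAs in the results was not tested. In such pools of sorted cells, fewer cells of a type and less RNA per cell cannot be told apart.

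As background, the alpha and beta chains of the T cell receptor bind the peptide and its MHC molecule but have short tails, and the signal is passed on by the associated CD3 and zeta chains, whose tails hold tyrosine motifs. CD8 binds class I MHC beside the receptor and carries Lck, which phosphorylates those motifs. ZAP-70 is then recruited to the zeta chain and phosphorylates LAT and SLP-76, the product of Lcp2, which assemble the complexes that lead to calcium and Ras signals. Repeated engagement in tumors and chronic infection is known to change how strongly CD8+ T cells answer through this path.

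In GRCm38 the CD3 genes lie together on chromosome 9. Cd3g (44969572 to 44980431, minus strand) and Cd3d (44981786 to 44987339, plus strand) are 1354 bases apart and point away from each other, and Cd3e (44998740 to 45009627, minus strand) follows 11400 bases further on. Cd8b1 (71322788 to 71337494) and Cd8a (71373427 to 71379173) lie on the plus strand of chromosome 6 with 35932 bases between them. Cd247 (165788681 to 165877277) and Zap70 (36761798 to 36782818) are on the plus strand of chromosome 1, Lck (129548344 to 129573641) on the minus strand of chromosome 4, Lat (126363824 to 126369570) on the minus strand of chromosome 7 and Lcp2 (34046920 to 34092295) on the plus strand of chromosome 11.

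The start regions of Lck and Zap70 are shown because the transcript values of these genes differed between annotated starts or between series. Each line gives the 250 bases before a RefSeq start, read along the gene from 5′ to 3′ (build GRCm38.p6), with capitals for a match of any of 4 short motifs on either strand. One motif was TGTGGT, bound by RUNX factors. Another was AGGAAG, bound by ETS factors. An E-box was searched as CAGGTG. The last was TATAAA, found before the starts of some highly regulated genes. No match in the 4 windows overlaps another.
Lck distal start, chr4:129573642-129573891, minus strand: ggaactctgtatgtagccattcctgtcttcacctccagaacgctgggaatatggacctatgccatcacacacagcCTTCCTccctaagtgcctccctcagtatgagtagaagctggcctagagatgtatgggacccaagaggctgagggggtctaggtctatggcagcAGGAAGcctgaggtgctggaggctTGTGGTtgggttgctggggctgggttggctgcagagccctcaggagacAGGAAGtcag
Lck proximal start, chr4:129558373-129558622, minus strand: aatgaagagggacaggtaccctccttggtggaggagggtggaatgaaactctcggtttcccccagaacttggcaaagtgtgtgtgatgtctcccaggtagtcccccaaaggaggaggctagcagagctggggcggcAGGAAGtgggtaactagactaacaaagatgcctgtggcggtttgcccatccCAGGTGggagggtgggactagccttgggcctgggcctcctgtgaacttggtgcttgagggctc
Zap70 first start, chr1:36761548-36761797, plus strand: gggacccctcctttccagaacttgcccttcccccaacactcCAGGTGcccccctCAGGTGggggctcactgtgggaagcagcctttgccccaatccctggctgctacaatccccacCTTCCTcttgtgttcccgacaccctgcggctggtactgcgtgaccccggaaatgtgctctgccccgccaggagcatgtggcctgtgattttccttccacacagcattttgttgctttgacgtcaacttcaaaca
Zap70 internal start, chr1:36778734-36778983, plus strand: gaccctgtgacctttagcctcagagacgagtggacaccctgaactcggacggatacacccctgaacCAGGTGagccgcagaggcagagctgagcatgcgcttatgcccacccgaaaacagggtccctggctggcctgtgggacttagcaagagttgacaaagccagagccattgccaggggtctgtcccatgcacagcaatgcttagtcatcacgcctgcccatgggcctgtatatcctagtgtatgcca

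The distal Lck window held 3 matches of the ETS letters and 1 of the RUNX letters, and the proximal window 1 ETS match and 1 E-box. The window before the first Zap70 start held 2 E-box matches and 1 ETS match, and the one before its internal start 1 E-box match. Of 12 start windows found for 9 of the genes (3 for Zap70 and 2 for Lck), 9 held the ETS letters, 6 the E-box, 2 the RUNX letters and 0 the letters of the last motif. Among all 32851 windows of the same length, 29.5% held the ETS letters, 17.2% the E-box, 14% the RUNX letters and 12.4% those of the last. A match describes the sequence and does not show that a factor binds there.

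The level of each gene in every library is shown first, because the groups are small and the libraries can be read one by one.

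**Figure D1:**
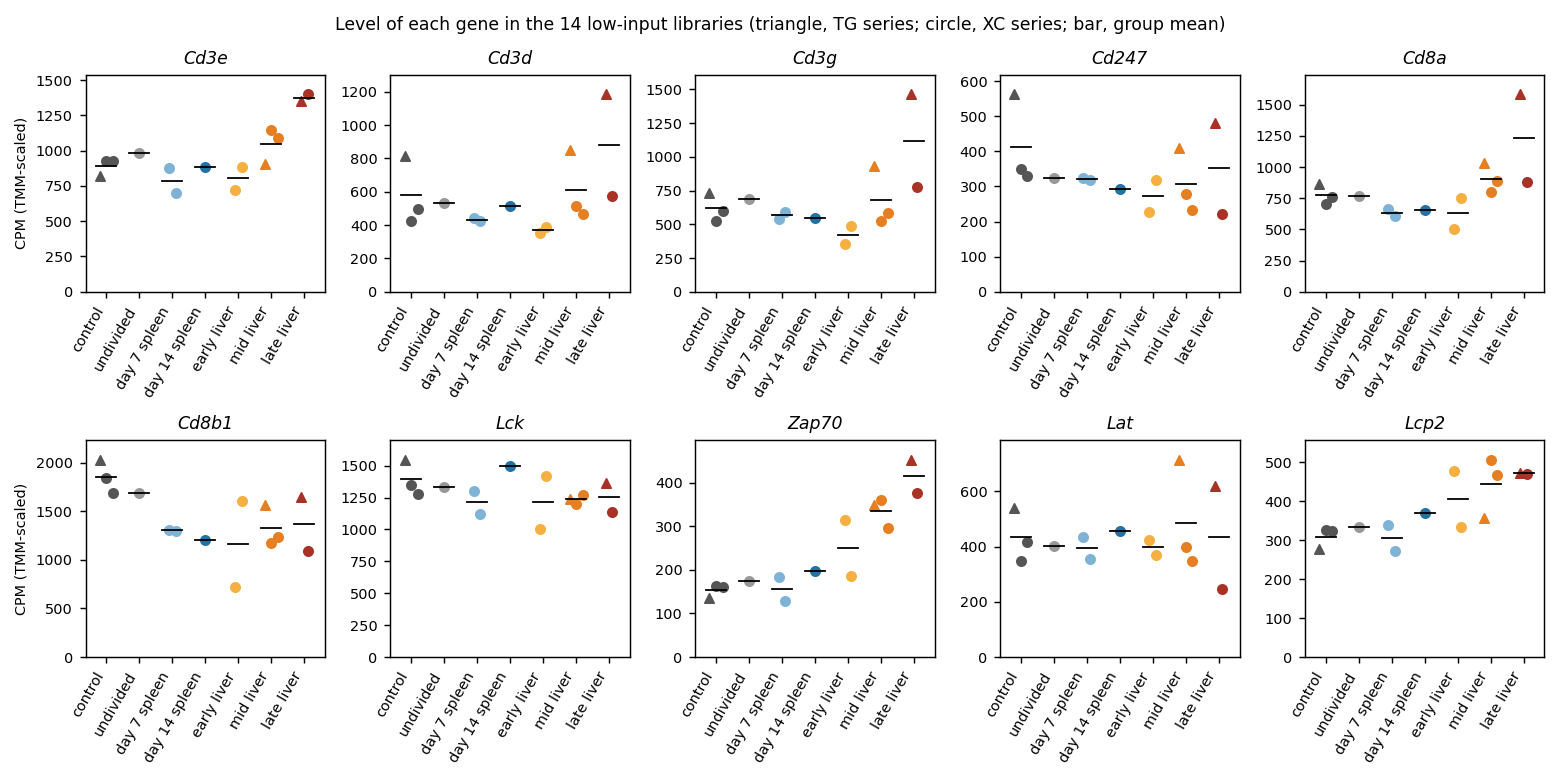
Each panel plots the TMM-scaled CPM (y axis, from 0) of 1 gene in the 14 low-input libraries by group (x axis), with triangles for the TG series, circles for the XC series and a bar for the group mean. Zap70 lies between 297 and 453 CPM in the 5 mid and late liver libraries and between 136 and 162 CPM in the 3 control libraries, while Cd8b1 lies between 1094 and 1649.72 CPM in the former and between 1691 and 2032 CPM in the latter.

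Zap70, the kinase that docks on the phosphorylated zeta chain, was the member with the largest change from control to mid and to late liver. In control it was at 136, 162 and 162 CPM in replicates 1, 2 and 3. In mid liver it was at 349, 361 and 297 CPM, and in late liver at 453 and 377 CPM. All 5 mid and late libraries lay above all 3 controls. The log2 fold change from control was 1.13 ± 0.24 (SE) in mid liver (2.19-fold, Benjamini-Hochberg adjusted p = 0.0141 from edgeR, as for all adjusted p unless stated, higher in 3 of 3 libraries) and 1.43 ± 0.26 in late liver (2.70-fold, adjusted p = 0.00611, higher in 2 of 2). For both together it was 1.28 ± 0.22, with a 95% interval from 0.79 to 1.77 and an adjusted p of 0.00352. Of all genes tested, 29.3% changed in mid liver, 34.2% in late liver and 43.8% in both together, so a change as such was common in these comparisons.

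The rise of Zap70 held with scaling by total counts, at 0.92 in mid liver (adjusted p = 0.016), 1.12 in late liver (adjusted p = 0.00899) and 1.02 in both together (adjusted p = 0.00411). Within the XC series alone the log2 fold change was 0.96 in mid liver, 1.18 in late liver and 1.07 in both together, with adjusted p of 0.151, 0.124 and 0.0729, and 0, 8 and 6 of 14566 genes were called there. In the TG series it went from 136 CPM in control to 349 CPM in mid and 453 CPM in late liver, with 1 library each and no test. The change in late liver was 1.28 without late replicate 1 (adjusted p = 0.0584) and 1.62 without late replicate 2 (adjusted p = 0.0651). In mid liver it was 0.99 without control replicate 1 (adjusted p = 0.0773), 1.17 without control replicate 2 (adjusted p = 0.0501), 1.09 without mid replicate 1 (adjusted p = 0.0717) and 1.22 without mid replicate 3 (adjusted p = 0.0597), settings that called 0 to 32 of all genes. For mid and late liver together Zap70 stayed past the threshold with any 1 library left out.

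In early liver Zap70 was at 314 CPM in replicate 1, above all controls by about the same amount as mid liver, and at 185 CPM in replicate 2. The log2 fold change over both was 0.71 ± 0.27 (adjusted p = 0.41), and 0 of all genes (0%) were called in this comparison, with 1675 at an unadjusted p under 0.05. With replicate 1 alone it was 1.04 (adjusted p = 0.0202), and with replicate 2 alone 0.27 (adjusted p = 1), where the lone library is assumed to vary like the other groups. In spleen of leukemia-bearing mice the kinase was at 183 and 129 CPM at day 7 and at 197 CPM at day 14. Undivided cells held 174 CPM, next to the range of the controls. In order of the mean, late liver was followed by mid liver, early liver, day 14 spleen, undivided cells, day 7 spleen and control. On the TMM scale late liver lay above mid liver in every library, whereas mid and early liver overlapped. By total counts late liver (327 and 358 CPM) overlapped mid liver (285, 353 and 281 CPM), and in TPM they overlapped too. The difference between late and mid liver was 0.30 ± 0.26 on the log2 scale (adjusted p = 0.983).

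Lck, the kinase bound to CD8 that acts before ZAP-70, did not follow it. Control libraries held 1547, 1349 and 1280 CPM, mid liver 1240, 1201 and 1271 CPM, and late liver 1367 and 1136 CPM. The groups overlapped, with a log2 fold change of -0.16 ± 0.18 in mid liver (adjusted p = 0.5) and -0.18 ± 0.20 in late liver (adjusted p = 0.499), for which the 95% interval ran from -0.63 to 0.27. For mid and late liver together the value was -0.44 when libraries were scaled by total counts (adjusted p = 0.0406). The ratio of Zap70 to Lck counts within a library, which does not depend on the scaling, was 0.088 to 0.126 in control, 0.131 in undivided cells, 0.115 to 0.14 in day 7 spleen and 0.132 in day 14 spleen. It was 0.234 to 0.3 in mid liver, 0.331 and 0.332 in late liver, and 0.312 and 0.13 in the 2 early liver libraries. Early liver replicate 1 therefore lay among the mid and late libraries in this ratio and replicate 2 just above the controls. In counts of protein-coding transcripts alone, the separation was smaller. Mid liver replicate 1 (TG series) was then at 0.150, beside 0.143 in control replicate 3, 0.152 in undivided cells and 0.154 in early liver replicate 2. The TG control was at 0.063 in this unit, and the other mid and late libraries were at 0.224 to 0.361.

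The co-receptor chains moved apart. Cd8b1 encodes the beta chain, which makes CD8 a more efficient co-receptor, and Cd8a the alpha chain, which can also form a homodimer. Cd8b1 was at 2032, 1844 and 1691 CPM in control, at 1568, 1175 and 1234 CPM in mid liver and at 1650 and 1094 CPM in late liver, so every mid and late library lay below every control. Its log2 fold change was -0.50 ± 0.26 in mid liver (adjusted p = 0.161), -0.52 ± 0.30 in late liver (adjusted p = 0.183) and -0.51 ± 0.23 in both together (adjusted p = 0.0937), none of which passed the threshold. Both early liver libraries enter the shared estimate of the spread, and for Cd8b1 they were at 724 and 1606 CPM. Without early liver replicate 1 the value for mid and late liver together was -0.51 ± 0.13 (adjusted p = 0.00912), and without replicate 2 it was -0.52 ± 0.13 (adjusted p = 0.00873). In early liver against control the log2 fold change of Cd8b1 was -0.55 ± 0.30 with both libraries (adjusted p = 0.542). It was -1.24 with early replicate 1 as the only early library and -0.08 with replicate 2 alone. A lone library gives no spread of its own group. Scaled by total counts, Cd8b1 fell by 0.77 on the log2 scale in mid and late liver together (adjusted p = 0.0188).

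Cd8a was at 863, 705 and 760 CPM in control, at 1034, 799 and 892 CPM in mid liver and at 1585 and 884 CPM in late liver. The groups overlapped, and the log2 fold change was 0.22 ± 0.20 in mid liver (adjusted p = 0.413) and 0.56 ± 0.23 in late liver (adjusted p = 0.0822). Within the XC series the late value was 0.23 (adjusted p = 0.653). The TG series went from 863 CPM in control to 1585 CPM in late liver. When only protein-coding transcripts were counted, the values were 0.02 in mid and 0.36 in late liver.

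As a ratio within each library, Cd8b1 to Cd8a counts stood at 2.35, 2.62 and 2.22 in control, at 1.52, 1.47 and 1.38 in mid liver and at 1.04 and 1.24 in late liver. Every mid and late library was below every control. The mean log2 ratio was 1.26 ± 0.12 (SD, n = 3) in control and 0.40 ± 0.22 (SD, n = 5) in mid and late liver, a difference of -0.86 (exact permutation test over libraries, two-sided, p = 0.0357, the smallest that its 56 arrangements can give). Undivided cells had a ratio of 2.20, day 7 spleen of 1.97 and 2.15, day 14 spleen of 1.85, and early liver of 1.43 in replicate 1 and 2.14 in replicate 2. Undivided cells and both spleen groups thus lay below the lowest control and above every mid and late liver library, and early replicate 1 lay within the range of mid liver. In the order of the group means, neighbours from control to day 14 spleen lay about 1 SD of the controls (0.2) or less apart.

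The ratio of summed TPM gave a difference of -0.88 and the ratio of counts in protein-coding transcripts one of -0.65, both with p = 0.0357 by the exact permutation test. All 7 liver libraries against control gave -0.74 (exact permutation test, p = 0.0167, the smallest of 120 arrangements). With any 1 of the 8 libraries left out the difference was -0.91 to -0.78, where the exact permutation test cannot go below 0.0571 (35 arrangements) or 0.0952 (21 arrangements). Within the XC series it was -0.83 over 3 and 2 libraries (exact permutation test, p = 0.2, the smallest of 10 arrangements). In the TG series the ratio was 2.35 in control, 1.52 in mid and 1.04 in late liver.

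**Figure D2:**
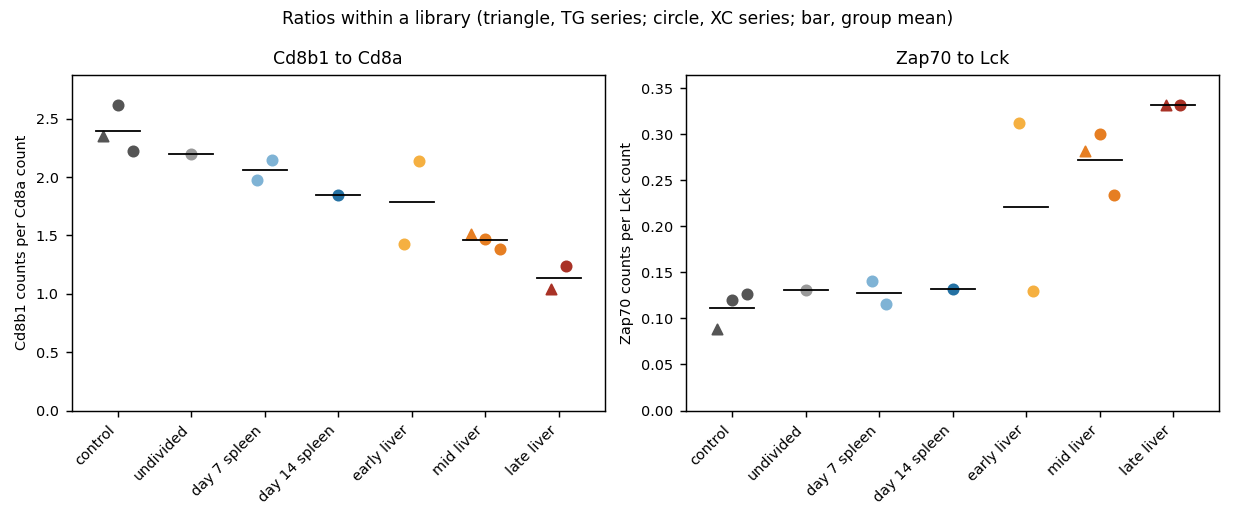
The panels plot, for each low-input library by group (x axis), Cd8b1 counts per Cd8a count (left y axis) and Zap70 counts per Lck count (right y axis), both from 0, with triangles for the TG series, circles for the XC series and bars for group means. The 5 mid and late liver libraries sit between 1.04 and 1.52 on the left and between 0.234 and 0.332 on the right, apart from the 3 controls at 2.22 to 2.62 and 0.088 to 0.126.

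The CD3 chains pair as epsilon with delta and epsilon with gamma, and the zeta chain joins the complex last. Cd3e was at 818, 926 and 924 CPM in control, at 902, 1146 and 1087 CPM in mid liver and at 1350.5 and 1399 CPM in late liver. Both late libraries lay above all other low-input libraries on the TMM scale, but by total counts late replicate 1 (976 CPM) lay below control replicate 3 (1015 CPM). The log2 fold change was 0.23 ± 0.17 in mid liver (adjusted p = 0.314) and 0.66 ± 0.19 in late liver (adjusted p = 0.024), and 0.45 ± 0.16 for both together (adjusted p = 0.0396). Scaling by total counts gave 0.35 in late liver (adjusted p = 0.133), which no longer passed the threshold. It also did not pass without either late library (0.58 without replicate 1, adjusted p = 0.169, and 0.77 without replicate 2, adjusted p = 0.09) or without any 1 of the controls (0.65 to 0.66). For mid and late liver together Cd3e was at 0.18 on the total-count scale (adjusted p = 0.297), and it passed the threshold in 10 of 23 alternatives.

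Cd3g was at 735, 522 and 596 CPM in control, at 929, 527 and 582 CPM in mid liver and at 1464 and 778 CPM in late liver. Within each series late liver was above control, although the groups overlapped in mid liver. The fold change of Cd3g was 0.69 ± 0.21 on the log2 scale in late liver (adjusted p = 0.0312) and 0.10 ± 0.19 in mid liver (adjusted p = 0.701). The late value was 0.38 with scaling by total counts (adjusted p = 0.153), 0.54 without late replicate 1 (adjusted p = 0.223), 0.87 without late replicate 2 (adjusted p = 0.0928), 0.52 without control replicate 1 (adjusted p = 0.167) and 0.68 without control replicate 2 (adjusted p = 0.0751). Cd3d, the neighbour of Cd3g, was at 815, 424 and 494 CPM in control, 849, 517 and 469 CPM in mid liver and 1185 and 573 CPM in late liver, with a log2 fold change of 0.42 ± 0.18 in late liver (adjusted p = 0.0875). In the TG series both genes stood higher than in the XC series in each group. Across the 14 libraries, Pearson's r of log2 CPM was 0.93 between Cd3d and Cd3g and 0.48 between Cd3d and Cd3e, a description over libraries that share their series and group.

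The zeta chain gene Cd247 was at 562, 349 and 330 CPM in control, at 408, 280 and 234 CPM in mid liver and at 481 and 222 CPM in late liver. In each series the liver libraries lay below the controls, but the groups overlapped in TMM-scaled CPM when the series were pooled. The log2 fold change was -0.42 ± 0.19 in mid liver (adjusted p = 0.108), -0.43 ± 0.21 in late liver (adjusted p = 0.14) and -0.42 ± 0.17 in both together (adjusted p = 0.0613). On the total-count scale the values were -0.63, -0.74 and -0.69, with adjusted p of 0.0272, 0.0211 and 0.0077. Per Cd3e count, Cd247 was at 0.688 in control replicate 1 (TG series) and at 0.377 and 0.357 in replicates 2 and 3. The same ratio was 0.453 (TG series), 0.244 and 0.215 in mid liver and 0.356 (TG series) and 0.159 in late liver. Undivided cells had 0.329, day 14 spleen 0.329, day 7 spleen 0.37 and 0.454, and early liver 0.315 and 0.36. No test of this ratio was made.

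Set per length, in TPM summed over all transcripts of a gene, the RNA levels of the complex were uneven throughout. Mean TPM in control was 756 ± 145 (SD, n = 3) for Cd3e, 606 ± 80.2 for Cd3g, 397 ± 69.5 for Cd3d and 240.4 ± 38.2 for Cd247. In late liver it was 893 ± 320 (SD, n = 2) for Cd3e, 788 ± 25.5 for Cd3g, 441 ± 51.6 for Cd3d and 139 ± 21.6 for Cd247. In these sums the order Cd3e, Cd3g, Cd3d, Cd247 was the same at both ends. The sums include retained-intron transcripts. Protein-coding transcripts held 54.9% to 68.0% of the TPM of Cd3e and 99.3% to 99.9% of that of Cd3g. In the oligo-dT library Cd3g (569 TPM) lay above Cd3e (362 TPM). The place of Cd3e before Cd3g is therefore limited to the summed TPM of low-input libraries. Among all 10 genes, Cd8b1 had the highest mean TPM in control (1214 ± 83.0) and came after Cd3e and Cd3g in late liver (643 ± 60.1), while Zap70 was last in control (75.6 ± 13.0) and stood at 150.2 ± 22.1 in late liver, where Cd247 was last.

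The adaptors LAT and SLP-76 are the substrates of ZAP-70. Lcp2 was at 277, 326 and 324 CPM in control, at 356, 507 and 468 CPM in mid liver and at 473 and 470.2 CPM in late liver, so all 5 mid and late libraries lay above the controls on this scale. The log2 fold change was 0.51 ± 0.19 in mid liver (adjusted p = 0.0656), 0.66 ± 0.21 in late liver (adjusted p = 0.0374) and 0.59 ± 0.18 in both together (adjusted p = 0.0221). On the total-count scale Lcp2 was at 0.34 in late liver (adjusted p = 0.188), and the late value passed the threshold in 9 of 23 alternatives and not without either late library. On the same scale the last value was 0.32 (adjusted p = 0.12), and the liver libraries then overlapped the controls. Without late replicate 1 it was 0.51 (adjusted p = 0.084), and without control replicates 1, 2 and 3 in turn 0.59, 0.58 and 0.58 (adjusted p = 0.0962, 0.068 and 0.0636). Early liver held 479 CPM in replicate 1 and 335 CPM in replicate 2. Lat was at 540, 347 and 417 CPM in control, at 715, 398 and 348 CPM in mid liver and at 618 and 248 CPM in late liver, above control in some libraries and below in others. Its log2 fold change was 0.10 ± 0.20 in mid liver (adjusted p = 0.715) and -0.27 ± 0.23 in late liver (adjusted p = 0.368), and -0.59 in late liver with scaling by total counts (adjusted p = 0.0424).

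Over the 10 genes, 1 rose and 0 fell in mid liver (Zap70), 4 rose and 0 fell in late liver (Zap70, Cd3e, Cd3g and Lcp2), and 3 rose and 0 fell in both together (Zap70, Cd3e and Lcp2). Of all genes 29.3%, 34.2% and 43.8% were called there, so the share of the list was below the background in mid liver and in both together and close to it in late liver. The median log2 fold change of the 10 was 0.10 in mid, 0.49 in late and 0.32 in both together, beside -0.07, -0.04 and -0.07 over all genes. With scaling by total counts the called genes became Zap70 (up) and Cd247 (down) in mid liver, Zap70 (up) with Cd247, Cd8b1 and Lat (down) in late liver, and Zap70 (up) with Cd247, Cd8b1 and Lck (down) in both together. The mid and late libraries did not overlap the controls in 3 of the 10 genes (Zap70 and Lcp2 above, Cd8b1 below), while 37% of all genes did not overlap. Zap70 and Cd8b1 kept apart from the controls also in CPM by total counts and in TPM, and Lcp2 did not. Cd247 lay below the controls in every mid and late library in both of these units, and Lck did so in CPM by total counts.

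**Figure D3:**
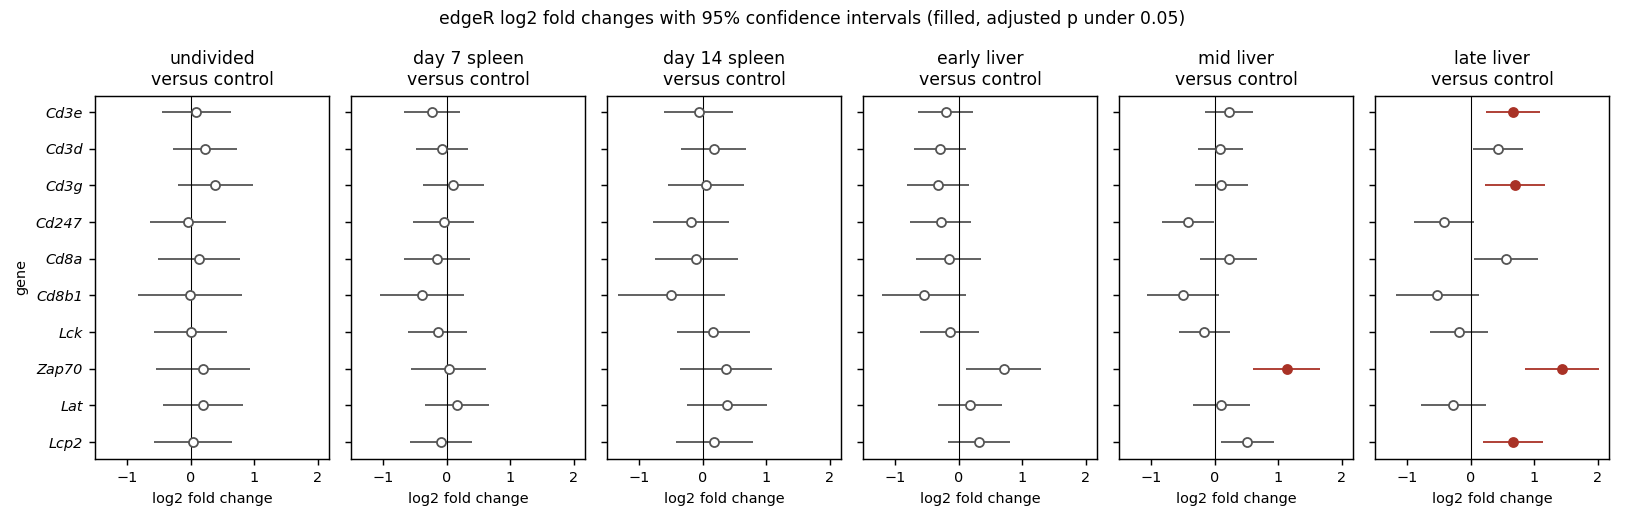
Each panel plots the log2 fold change (x axis) of the 10 genes (y axis) against control for 1 group, with 95% confidence intervals and filled symbols at an adjusted p under 0.05. Zap70 is filled at 1.13 in mid and 1.43 in late liver, Cd3e, Cd3g and Lcp2 are filled in late liver at 0.66 to 0.69, and no gene is filled in undivided cells, spleen or early liver.

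Outside the liver at mid and late times no gene of the 10 was called. Undivided cells, the 1 library labelled as high in the dye, differed from control by -0.04 (Cd247) to 0.38 (Cd3g) on the log2 scale. In that comparison 0% of all genes were called, with 174 at an unadjusted p under 0.05. Day 7 spleen differed by -0.39 (Cd8b1) to 0.16 (Lat), with 0% called and 972 genes at an unadjusted p under 0.05. Day 14 spleen differed by -0.49 (Cd8b1) to 0.38 (Lat), with 0.00647% called (1 gene, not of the 10). Cd8b1 was at 1307 and 1298 CPM in day 7 spleen and at 1209 CPM in day 14 spleen, all below the lowest control of 1691 CPM, and at 1687 CPM in undivided cells. Its log2 fold change was -0.39 ± 0.30 at day 7 (adjusted p = 0.905) and -0.49 ± 0.38 at day 14 (adjusted p = 0.844), and a group of 1 library is assumed to vary like the others.

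Liver was also set against spleen of leukemia-bearing mice, where tissue differed at a like time. Zap70 was higher in early liver than in day 7 spleen by 0.68 ± 0.29 on the log2 scale (adjusted p = 0.544, 0% of all genes called, 1395 at an unadjusted p under 0.05). This value was 0.24 without early replicate 1, 1.01 without early replicate 2 and 0.45 without day 7 spleen replicate 2, each with 1 library left in a group. Zap70 was higher in mid liver than in day 14 spleen by 0.76 ± 0.35 (adjusted p = 0.711, 0.00647% called). Late liver exceeded undivided cells of the same stage by 1.24 ± 0.38 (adjusted p = 0.108, 0% called, 3750 at an unadjusted p under 0.05). DESeq2 gave the last difference as 1.24 with an adjusted p of 0.0237. Between late and mid liver no gene of all was called (0%, 767 at an unadjusted p under 0.05), and the 10 genes differed by -0.38 (Lat) to 0.59 (Cd3g).

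The deposited values were per transcript. Shares of annotated transcripts differed between preparations or title series for several genes, among them Cd8a, Zap70, Lck, Lcp2, Cd3e and Cd3g. The retained-intron transcript Cd3e-203 held 38.4% to 42.0% of the TPM in low-input TG libraries and 27.6% to 34.1% in XC libraries. Its share in the oligo-dT library was 6.41%. The protein-coding Cd3g-203 held 3.48% to 16.4% in the low-input libraries and 35.5% in the oligo-dT library. Cd8b1 has 1 transcript. Of Cd8a, the retained-intron transcript Cd8a-203 (1950 bases) held 83.6% to 87.8% of the gene's TPM in every low-input library and 31.7% in the oligo-dT library. In the latter the protein-coding Cd8a-201 (3128 bases) held 48.8%, beside 5.1% to 11.2% in the low-input libraries. The Cd8b1 to Cd8a count ratio of the oligo-dT library was 1.03, against 2.35 in the low-input control library of the TG series, so the level of the ratio depended on the preparation and its comparison is limited to the low-input libraries.

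For Zap70, the transcript Zap70-204 is annotated as a retained intron and begins exactly at the internal start shown above. It held 39.8% to 61.0% of the TPM in the 3 TG libraries and at most 1.08% in the 11 XC libraries. Whether RNA was begun at that start was not tested. Zap70-201, which begins at the first start, held 37.5% to 53.8% in the TG series and 94.2% to 97.8% in the XC series. The split followed the series and not the groups. Counted from protein-coding transcripts alone, Zap70 still rose by 1.01 in mid liver (adjusted p = 0.0164) and 1.46 in late liver (adjusted p = 0.00578). Of Lck, Lck-202 from the distal start held 49.7% to 76.3% of the TPM and Lck-201 from near the proximal start 2.44% to 7.92%, in every group. The retained-intron transcript Lck-203 held 3.99% to 18.6% in the XC series and at most 0.236% in the TG series. Lcp2-202 held 44.0% to 49.6% in the XC series and 10.7% to 31.2% in the TG series.

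**Figure D4:**
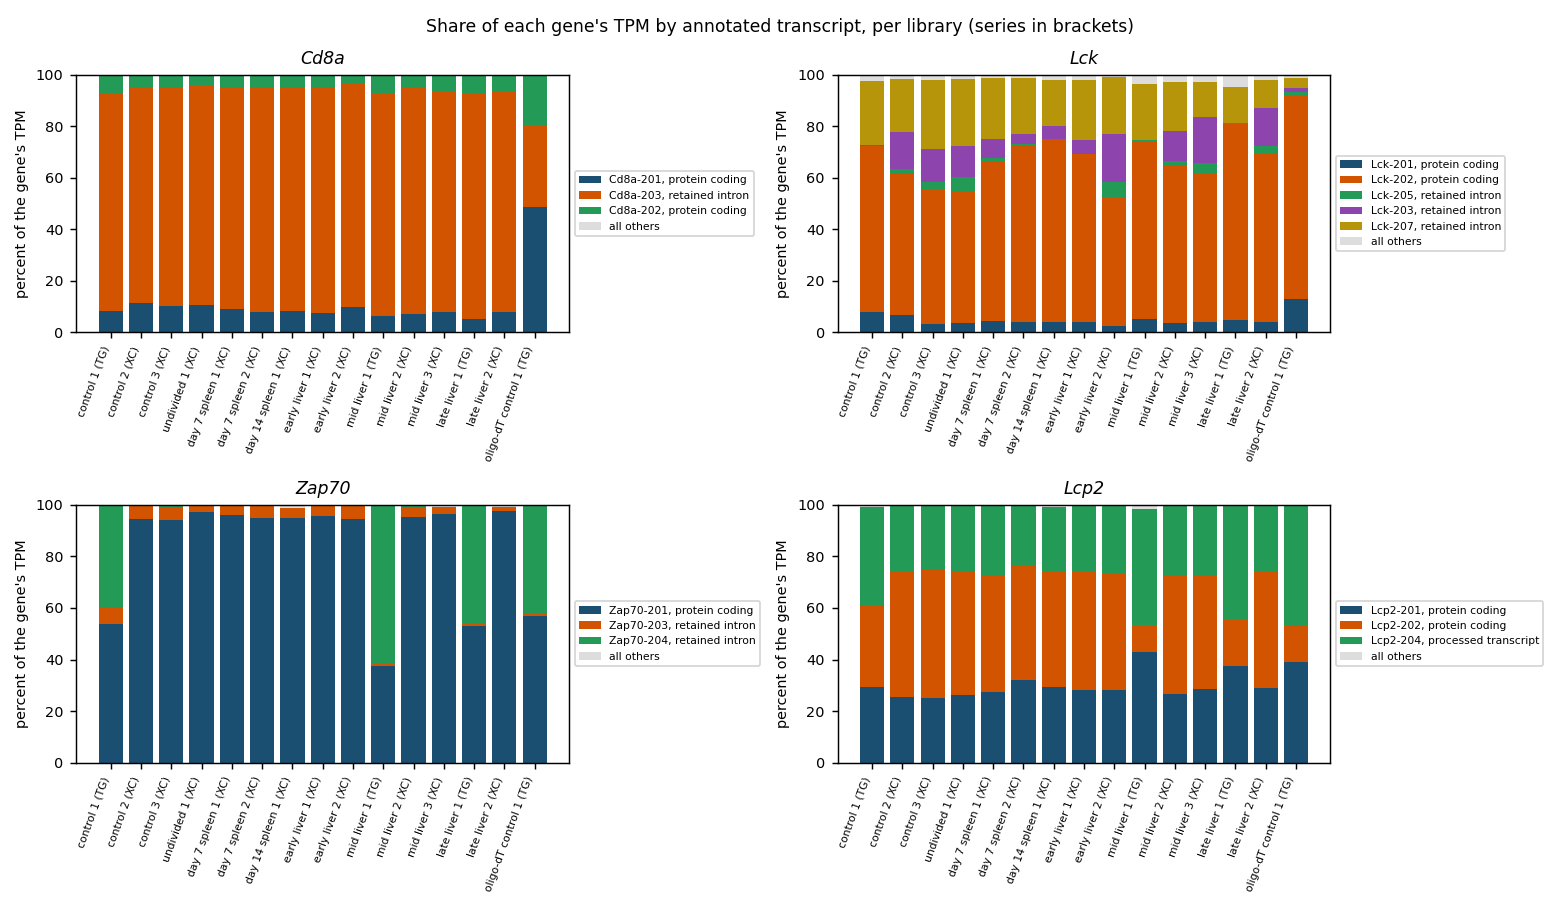
Stacked bars give the share of a gene's TPM (y axis, percent) held by each annotated transcript of Cd8a, Lck, Zap70 and Lcp2 in the 14 low-input libraries and the oligo-dT library (x axis). Cd8a-203 holds 83.6% to 87.8% in all low-input libraries, and Zap70-204 holds 39.8% to 61.0% in the TG libraries and at most 1.08% in the XC libraries.

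The other genes of the T cell receptor path were taken from a list of 25, all of which were tested. In mid liver 4 rose and 9 fell, with a median log2 fold change of -0.69 beside -0.07 over all genes, of which 29.3% were called. In late liver 4 rose and 11 fell, with a median of -0.76 beside -0.04 over all genes, of which 34.2% were called. The list includes kinases (Fyn, Txk, Prkcq), exchange factors (Vav1, Sos1, Rasgrp1) and adaptors (Grap2, Themis, Sh2d2a). Of the 25, the 6 with the smallest p in late liver were named. Txk, a Tec family kinase, fell from 226 ± 44.1 CPM (SD, n = 3) in control to 60.9 ± 8.38 CPM (SD, n = 2) in late liver, by a log2 fold change of -1.93 ± 0.29 (SE, adjusted p = 0.00447). Themis, an adaptor known from thymic selection, fell from 236 ± 39.1 to 57.5 ± 26.1 CPM (-1.97, adjusted p = 0.0047). Grap2, the adaptor that links SLP-76 to LAT, fell from 204 ± 35.9 to 53.0 ± 11.8 CPM (-2.03, adjusted p = 0.00785). Rasgrp1, a Ras exchange factor, fell from 308 ± 88.0 to 110.2 ± 62.5 CPM (-1.38, adjusted p = 0.00805).

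Of the named genes 2 rose. Unc119, known as an activator of Lck and Fyn, rose from 9.13 ± 4.38 to 72.7 ± 30.1 CPM (2.85, adjusted p = 0.0047). Sh2d2a, which encodes the Lck-binding adaptor TSAd, rose from 176 ± 5.62 to 863 ± 373 CPM (2.10, adjusted p = 0.00721). Scaling by total counts gave 2 up and 18 down in late liver, with a median of -1.06 beside -0.35 over all genes. Within the XC series 0 of the 25 passed the threshold, with a median of -0.67, and 8 of all genes did. Among the receptor's constant genes, for which RNA of the transgene and of the genome's own genes cannot be told apart, Trac was at 773 ± 206 CPM in control and 1230.04 ± 100.1 CPM in late liver (0.73 ± 0.25, adjusted p = 0.0431). Over 23 alternatives the value for Trac ranged from 0.39 to 1.01 and passed the threshold in 11. Trbc1 and Trbc2 were not called.

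**Figure D5:**
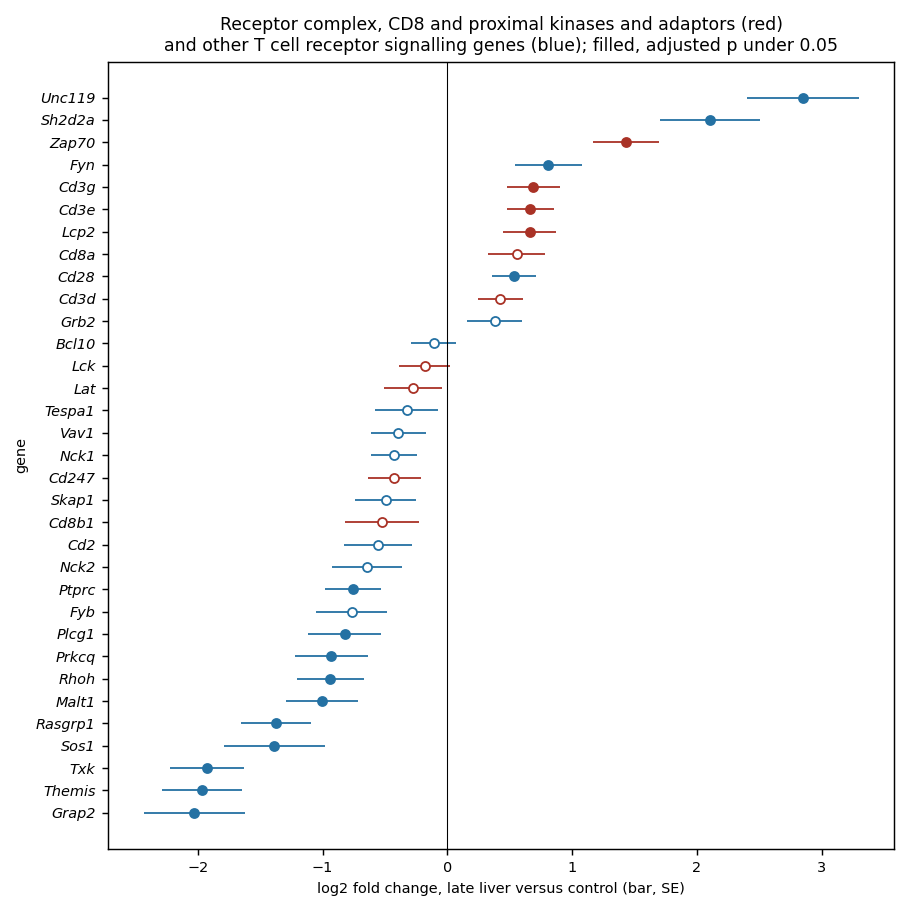
Genes of the receptor path (y axis) are ordered by their log2 fold change from control to late liver (x axis, with the SE as bars), in red for the 10 receptor, co-receptor, kinase and adaptor genes and in blue for 23 of the 25 others, filled at an adjusted p under 0.05. The 10 genes lie between -0.52 (Cd8b1) and 1.43 (Zap70), while the others shown reach from -2.03 (Grap2) to 2.85 (Unc119).

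The genes whose log2 CPM followed each member most closely over the 14 libraries were taken among 5877 genes with a mean log2 CPM of at least 5. For Zap70 these were Nfkb2, Slc29a1 and Pkm, with Pearson's r of 0.98, 0.98 and 0.97. For Cd8b1 they were Scp2, Gimap9 and Selplg (0.94 each), for Cd8a Gimap1, Tor1a and Slc25a11 (0.95, 0.94 and 0.93) and for Cd3e Csk, Hgsnat and Fam3c (0.94, 0.92 and 0.91). Csk encodes the kinase that holds Lck inactive. For Lcp2 they were Stx6, Gfi1 and Gabpb1 (0.96, 0.96 and 0.95), and for Lck Itm2b, Vrk3 and Il10rb (0.85, 0.84 and 0.84), the lowest values of the 10. Cd3d, Cd3g, Cd247 and Lat, which all stood higher in TG libraries, were followed most closely by Psenen (0.98), Pigx (0.98), Thap3 (0.96) and Pmm2 (0.93). Among the members, Zap70 and Lcp2 gave 0.90, and Cd8b1 and Lcp2 -0.62. These correlations describe libraries that share group and series, and carry no test.

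Some members share sequence with other genes, which limits how reads could be divided. Lck and Zap70 share 0 runs of 31 bases, the usual index length, with transcripts of other genes, and Cd8a shares 2.51% of its runs, Cd3e 2.72%, Lcp2 6.21% and Cd8b1 8.4%. Cd247 shares 57.7%, with Pou2f1 on the opposite strand and with Gm16565. Its main transcript Cd247-201 ends before Pou2f1 begins and held 86.8% to 97.2% of the TPM. Cd3e overlaps the antisense gene Gm48719, and Lcp2 lies within 4930469K13Rik on the opposite strand, and strand use in counting is not given in the sources used here.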

How the data were processed

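Per the labels and the paper's methods, the authors sorted TCRTg101, sequenced low-input libraries in 2 batches, converted reads with bcl2fastq and quantified transcripts with kallisto (versions not given in the sources used here) for GRCm38 (mm10). The deposited files hold 1 run each, 26 in all, with an estimated count (expected counts, not whole numbers) and TPM per transcript. The deposited TPM are scaled for length and depth by the authors.

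Transcripts were matched without version to GENCODE vM21 (GRCm38), which may differ from the authors' annotation, and 116710 of 118783 were assigned. Estimated counts were summed per gene and over the runs of a library, giving 15 libraries, and rounded. Mean chi-square values over genes between runs of one library were 1.85 to 2.36 in the XC series and 14.5 to 25.0 in the TG series. Between libraries of one group they were 47.9 to 367, so runs were summed and libraries counted as samples. Depth was 22918996 to 71358287 counts, so counting error is small and the 1 to 3 libraries per group limit precision. The labels do not say whether libraries came from separate mice, so p-values measure the spread between libraries.

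Of the 14 low-input libraries, 6 or more had to hold 10 or more counts of a gene, and such genes were tested with edgeR 4.0.16 in R 4.3.3 (TMM, robust quasi-likelihood, two-sided, group and title series in the model, Benjamini-Hochberg, threshold 0.05), in 11 comparisons. CPM are TMM-scaled unless stated. The ratio used an exact permutation test (scipy 1.17.1). The alternatives were DESeq2 1.42.0, which the authors used, and changes of normalization, filter, libraries, runs and series term, with each replicate left out. A further 3 were added after the data were seen, namely protein-coding transcripts only, the XC series only and scaling by total counts. The scripts were tested on simulated data. The members and lists were chosen with earlier results of these data known. Named genes were all members, up to 6 other receptor path genes with the smallest p among those called in late liver, and for each member the 3 genes most like it. Transcripts are named with at least 5% of a gene's TPM. Sequences are from RefSeq (GRCm38.p6), where 9 of the 10 genes were found, without Cd8b1. Of the 25 other receptor path genes, 2 enter the counts and are not reported singly here.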

Additional observations from a re-analysis of the deposited data

How the results depend on the processing

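All 23 alternatives together gave 249 counts of called members, of which 214 stayed within 1.5 times the reported count. A reported count of 0 that stayed 0 is included among these. Of the 11 comparisons, only mid liver, late liver and both together against control had a called member. These held most of the counts that did not stay, so the total overstates how stable their calls were. Of 1143 fold changes of single named genes under them, 1003 kept direction and side of the threshold, 92 no longer passed, 30 newly passed and 18 changed sign. Levels of the members were also taken in CPM by total counts and in summed TPM. Of 20 such log2 ratios of mean mid and late liver to control, 15 moved by at least the SD of log2 CPM in control, and 5 did not. In mean TPM Lck was at 878 in control and 508 in late liver, Lat at 358 and 235, and Lcp2 at 137 and 153. Groups of 1 to 3 libraries limit precision, and not depth. No cause of these changes was tested, except that fewer libraries enter where some are left out.

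Of the 10 genes, 1 was called in mid liver, against 2 with DESeq2, 2 with the first run of each library, 2 with scaling by total counts, 0 in the XC series and 0 to 3 with 1 library left out. In late liver 4 were called, against 1 without the series term, 1 without the count filter, 2 with day 0 controls only, 0 in the XC series and 0 to 6 with 1 library left out. In mid and late liver together 3 were called, against 1 without the series term, 1 with day 0 controls only, 0 in the XC series and 1 to 6 with 1 library left out. Leaving out 1 library gave 0 to 2 in early liver and 0 to 1 in early liver against day 7 spleen. Late liver against undivided cells gave 1 with DESeq2, 1 without the count filter and 0 to 1 with 1 library left out. The highest counts came without an early liver library, which narrows the shared spread, and the lowest without a control, mid or late library.

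Over all genes, mid liver had 4525 called, against 1764 without the series term, 0 in the XC series and 0 to 5569 with 1 library left out. Late liver had 5291, against 2936 without the series term, 8 in the XC series and 0 to 6209 with 1 library left out, the 0 without late replicate 2. Both together had 6780, against 4445 without the series term, 6 in the XC series and 2145 to 7374 with 1 library left out. Of the calls, 59.6% were higher in mid liver, 58.3% in late liver and 52.7% in both together, and 40.9%, 36% and 34.3% with scaling by total counts.

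Some signs changed. Scaling by total counts gave -0.12 for Cd3d, -0.11 for Cd3g and -0.10 for Lat in mid liver and -0.0084 for Cd3d in mid and late liver together. The XC series gave -0.077 for Cd3g and -0.10 for Lat in mid liver. Lat in mid and late liver together was 0.080 without the series term and 0.049 with day 0 controls only. With 1 library left out, Cd3g in mid liver ranged from -0.040 to 0.20, Lat in mid liver from -0.091 to 0.25, Lat in late liver from -0.54 to 0.038 and Lat in both together from -0.31 to 0.088. Cd8b1 in early liver against day 7 spleen, at -0.16 with all libraries, ranged from -0.85 without early replicate 2 to 0.30 without early replicate 1. Zap70 in day 7 spleen against control, at 0.031 with all libraries, ranged from -0.24 without day 7 spleen replicate 1 to 0.26 without replicate 2, and was -0.015 with protein-coding transcripts and -0.061 in the XC series.

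Of the 25 other receptor path genes, 13 were called in mid liver, against 5 without the series term, 0 in the XC series, 20 with scaling by total counts and 0 to 20 with 1 library left out. In late liver 15 were called, against 7 without the series term, 0 in the XC series and 0 to 18 with 1 library left out.

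The Cd8b1 to Cd8a log2 difference was -0.91 with day 0 controls only, -0.83 in the XC series and -0.91 to -0.78 with 1 library left out, each with the smallest p its arrangements allow. No comparison with spleen was run on the 11 libraries of the study's figure.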
